A study of Homo sapiens with 6 samples.

Results

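The long intergenic noncoding RNAs with a LINC symbol were examined in OVCAR3 cells, an established line of high-grade serous ovarian adenocarcinoma. Rows of the gene table whose whole symbol is LINC followed by digits were selected on their level, with no fewer than 3 of the 6 libraries holding a value of 10 or more, which gave 218 RNAs out of 1732 rows with such a symbol and 47577 loci in all. PolyA RNA was sequenced from 3 biological repeats treated with DMSO, the solvent, and from 3 treated with 200 nM THZ531, which binds CDK12 and CDK13 covalently and blocks their kinase activity, each for 6 h. Titles and descriptions name THZ531, whereas the treatment protocol field of the labels gives THZ1 at 200 nM, and the groups follow the titles. All cultures were grown in the same medium, and the labels give no transgene or edited allele. The rule used the level of each RNA in both groups and not the difference between them, but an RNA near the minimum can pass through 1 group alone. All 6 libraries were at or above the minimum for 148 RNAs. The minimum was reached in the 3 DMSO libraries and in no THZ531 library by 13 RNAs, and in the 3 THZ531 libraries and in no DMSO library by 7, so that these could only enter with groups that differ. GENCODE v44 had 194 of the 218, 190 as lncRNA and 4 as a pseudogene.

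LINC symbols are given to long noncoding transcripts that lie between protein-coding genes and have no named function. Like mRNAs they are made by RNA polymerase II and are often spliced and polyadenylated, but they are usually transcribed weakly, and many are removed in the nucleus by the RNA exosome. CDK12 and CDK13 phosphorylate the C-terminal domain of the polymerase during elongation, which helps it to travel along the gene and to recruit splicing and 3ʹ end factors.

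The reads counted on genes were between 53054048 and 70986130 per library. The deposited values are read counts scaled by the size factor of their library, called normalized reads here, and they are not corrected for gene length. The summed level of 8 epithelial markers was between 436910 and 447840 in DMSO and between 556080 and 568810 in THZ531, most of it from the keratins KRT7, KRT8 and KRT18. Among these markers PAX8, the lineage factor of the Müllerian epithelium, was between 10645 and 11636 in DMSO and between 1161 and 1380 in THZ531. The summed level of 8 markers of blood, endothelial and stromal cells was between 759 and 1131 in DMSO and between 1208 and 1396 in THZ531, most of it from COL3A1, and CD3E was listed at 0 in all libraries. The part of such cells in the results was not tested.

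Expressed LINC RNAs took few of the reads. All 1732 rows together held 0.0820% to 0.0821% of the normalized reads of a DMSO library and 0.0606% to 0.0638% of a THZ531 library. The median of the 218 RNAs was 43.6 normalized reads over the 6 libraries, against 504 for the 17568 tested loci. A mean below 100 was found for 156 RNAs and a mean of at least 1000 for 9. The 10 RNAs with most reads held 46.3% of the sum over the 218 in DMSO and 47.2% in THZ531.

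The sum over all LINC rows was 45481, 45765 and 46421 normalized reads in the DMSO libraries and 40864, 42005 and 39963 in the THZ531 libraries, in the order of their replicate numbers. The groups did not overlap, and the mean was 45889 ± 482 in DMSO and 40944 ± 1023 in THZ531 (SD, n = 3), a log2 ratio of -0.16 (two-sided exact permutation test, p = 0.1, and 3 libraries against 3 cannot give a smaller p). After setting all libraries to the same total the log2 ratio of the sum was -0.41, and with scaling to RPL34, a ribosomal protein mRNA, it was -0.66 (two-sided exact permutation test, p = 0.1 for both). In bulk samples such as these, fewer cells with an RNA and less RNA per cell cannot be told apart. Without LINC00958, the row with most reads, the means were 40557 ± 456 and 39816 ± 1055 (SD, n = 3), a log2 ratio of -0.03 (two-sided exact permutation test, p = 0.4). Over the 218 RNAs without LINC00472, which changed in the other direction, the means were 43926 ± 534 and 35284 ± 860 (SD, n = 3), a log2 ratio of -0.32 (two-sided exact permutation test, p = 0.1). This last sum was chosen after seeing the data.

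**Figure D1:**
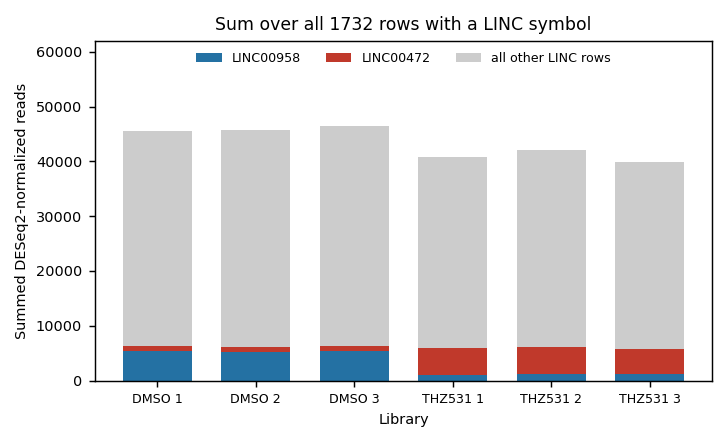
Summed normalized reads (y axis) over all 1732 rows with a LINC symbol in each of the 6 libraries (x axis), divided into LINC00958 (blue), LINC00472 (red) and all other rows (grey). The DMSO bars reach 45481 to 46421 and the THZ531 bars 39963 to 42005, with a smaller blue part and a larger red part in THZ531.

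Upon treatment with THZ531, 77 of the 218 LINC RNAs decreased and 31 increased. A change was called where limma gave a fold of 1.5 or more with an unadjusted p no higher than 0.05. These are 35.3% and 14.2% of the RNAs, while 23.9% of all 17568 tested loci decreased and 15.7% increased. In either direction 49.5% of the LINC RNAs and 39.5% of all tested loci were called. Among the 148 RNAs at the minimum in all 6 libraries, 53 decreased and 21 increased. The median log2 fold change of the 218 RNAs was -0.34, with quartiles of -1.24 and 0.29, and over all tested loci it was -0.01, with quartiles of -0.63 and 0.42. For the 148 RNAs the median was -0.18. With a Benjamini-Hochberg adjusted p of at most 0.05 over all loci tested (limma) and no fold threshold, 80 RNAs were lower and 35 higher, 52.8% in all against 68.6% of all loci.

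Of the called RNAs, 71.3% were decreased. This share was 79.8% after setting all libraries to the same total (91 decreased and 23 increased) and 86.3% with scaling to RPL34 (113 and 18). Over all tested loci the share of decreases was 60.4% with the deposited scaling, 77.3% with the same total and 87.5% with RPL34. These scalings moved the median of all loci by -0.24 and -0.49 on the log2 scale. Counted over the RNAs tested and not over the calls, decreases were 41.7% of the LINC RNAs and 32.0% of all loci with the same total, and 51.8% and 42.8% with RPL34.

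Changes of 4-fold or more were seen in 24 RNAs downward and in 8 upward, 11.0% and 3.67% of the RNAs, against 4.16% and 3.03% of all tested loci. These counts include RNAs that reached the minimum in 1 group alone, such as LINC00663 and LINC00597, whose direction was fixed by the selection. The groups did not overlap for 118 RNAs (54.1%), 80 of them lower and 38 higher in THZ531, while 71.7% of all tested loci had groups that did not overlap. Since LINC RNAs have few reads, the calls were also counted by level. At a mean under 50 normalized reads, 36 of 118 RNAs decreased (30.5%, against 25.6% of 3671 loci) and 17 increased (14.4%, against 19.0%). Between 50 and 500, 33 of 78 decreased (42.3%, against 38.1% of 5095 loci) and 10 increased (12.8%, against 16.2%). At 500 or more, 8 of 22 decreased (36.4%, against 15.0% of 8802 loci) and 4 increased (18.2%, against 14.0%). At each level the share of decreases was above that of all loci, and no test was made of these shares.

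Other noncoding classes of the table were set beside them. Of 412 tested antisense noncoding symbols, 35.4% decreased and 11.9% increased, with a median of 47.8 normalized reads and a median log2 fold change of -0.31. Of 42 small RNA host genes, 19.0% decreased and 21.4% increased, with a median log2 fold change of 0.07. Of 2290 loci without a symbol, 25.3% decreased and 31.1% increased, with a median of 0.16. Of these classes the antisense RNAs had the shares and the median nearest to those of the LINC RNAs. Decreases of 4-fold or more were found in 6.55% of the antisense symbols, 2.38% of the host genes and 8.52% of the loci without a symbol. Such increases were found in 1.21%, 7.14% and 17.0%.

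**Figure D2:**
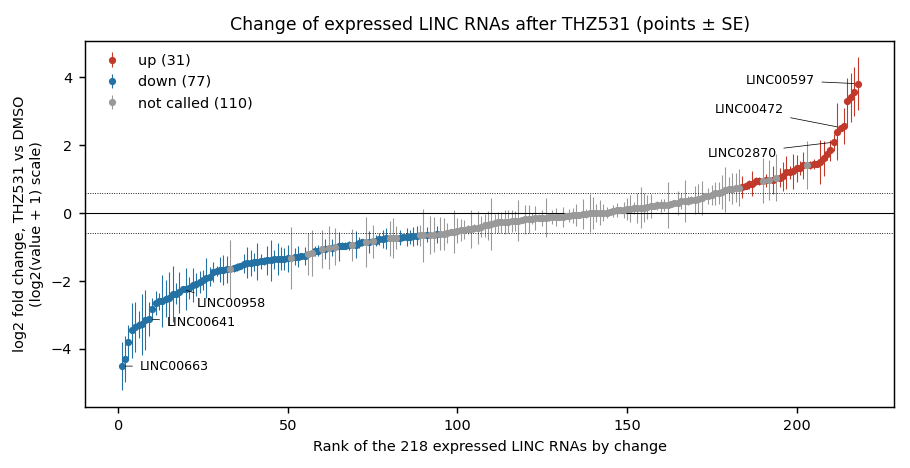
Log2 fold change of THZ531 against DMSO on the log2(value + 1) scale (y axis, points with standard error) of the 218 expressed LINC RNAs ranked by change (x axis). The 77 decreased RNAs are blue, the 31 increased ones red and the 110 others grey, dotted lines mark a 1.5-fold change, and the blue points reach farther from 0 in greater number than the red ones.

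LINC00958, also called BLACAT2 and studied as a growth-promoting transcript in bladder and other carcinomas, had the most reads of all LINC rows. It lies on the minus strand of chromosome 11 from 12979535 to 12989548 (hg38, as are all positions here). Its values were 5382, 5204 and 5410 normalized reads in DMSO and 1047, 1134 and 1203 in THZ531. It fell from 5332 ± 112 to 1128 ± 78.2 (SD, n = 3), and its log2 fold change was -2.24 (SE 0.06, limma adjusted p = 3.7e-14). The 2 groups were far apart, and omitting any single library left the log2 fold change between -2.29 and -2.19.

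The 8 RNAs with the largest decrease, considering RNAs whose mean reached 50 and whose groups were separate, were LINC00958, LINC00339, LINC01508, LINC02012, LINC01137, LINC01270, LINC00667 and LINC01134. LINC00339, studied together with its neighbour CDC42, a GTPase gene, had 187, 174 and 170 normalized reads in DMSO and 37.8, 27.3 and 13.7 in THZ531. Its log2 fold change was -2.82 (SE 0.31, limma adjusted p = 6.3e-07). LINC02012 had 226, 218 and 250 normalized reads in DMSO and 51.6, 25.0 and 39.8 in THZ531, and its log2 fold change was -2.60 (limma adjusted p = 1.1e-07). In both RNAs every THZ531 library was far below every DMSO library, although the THZ531 libraries differed among themselves by more than 2-fold.

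LINC01508 spans 132592 bases of chromosome 9, of which 2007 are exon in GENCODE. It had 125, 98.4 and 94.2 normalized reads in DMSO and 8.82, 19.3 and 23.9 in THZ531, and its log2 fold change was -2.64 (limma adjusted p = 6.2e-06). LINC01137 went from 123 ± 2.77 to 24.3 ± 9.94 (SD, n = 3), and its log2 fold change was -2.37 (limma adjusted p = 3.0e-06). The groups of both RNAs were well apart. LINC01270, LINC00667 and LINC01134 had log2 fold changes between -2.20 and -1.97. LINC00663, singled out after its values were seen, had 31.8, 26.9 and 27.9 normalized reads in DMSO and 1.26, 0 and 0 in THZ531. It is among the 13 RNAs that reached the minimum in the DMSO libraries alone, so that its values are a description, and no fold is given.

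LINC00472, studied as a tumor suppressor transcript in breast cancer, showed the largest increase among the RNAs with a mean of at least 50. It lies on the minus strand of chromosome 6 from 71407864 to 71420745. Its values were 839, 832 and 819 normalized reads in DMSO and 4849, 4948 and 4553 in THZ531. It rose from 830 ± 10.0 to 4783 ± 206 (SD, n = 3), a fold change of 5.75 (log2 fold change 2.52, SE 0.05, limma adjusted p = 9.2e-15). The libraries of each group were close to one another, and the log2 fold change stayed between 2.50 and 2.56 with each library left out.

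The 8 RNAs with the largest increase were LINC00472, LINC02870, LINC01003, LINC01089, LINC00662, LINC01139, LINC00896 and LINC01315. LINC02870 had 37.3, 36.2 and 66.2 normalized reads in DMSO and 243, 188 and 160 in THZ531, and its log2 fold change was 2.09 (limma adjusted p = 2.0e-06). LINC01003 had 87.3, 72.4 and 91.0 in DMSO and 272, 300.1 and 268 in THZ531, and its log2 fold change was 1.74 (limma adjusted p = 9.0e-08). In both RNAs every THZ531 library was more than 2-fold above every DMSO library.

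LINC01089, also called LIMT and described as lowered by EGF in mammary cells, had 379, 351 and 358 normalized reads in DMSO and 970, 1111 and 924 in THZ531. Its log2 fold change was 1.46 (SE 0.09, limma adjusted p = 7.3e-10). LINC01139, known as LINK-A for its role in kinase activation, went from 226 ± 22.9 to 611 ± 79.6 (SD, n = 3), and its log2 fold change was 1.42 (limma adjusted p = 3.3e-08). The groups of both were apart by more than their spread. LINC00662 went from 158 ± 19.6 to 432 ± 41.2 (SD, n = 3), and its log2 fold change was 1.45. Its counted locus spans 3761 bases, whereas GENCODE gives it 33198 bases of exon. That locus overlaps LOC101927151, of unmatched strand, which fell by 1.03 on the log2 scale. LINC00896 and LINC01315 had log2 fold changes of 1.33 and 1.21. LINC01315 varied most in DMSO, with 145, 143 and 91.8 against 256, 349 and 268 in THZ531, and its groups still did not overlap. Among the RNAs with fewer reads, LINC00528, singled out after its values were seen, had 0, 1.86 and 3.19 normalized reads in DMSO and 15.1, 47.7 and 25.0 in THZ531, and it could enter only through the latter.

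**Figure D3:**
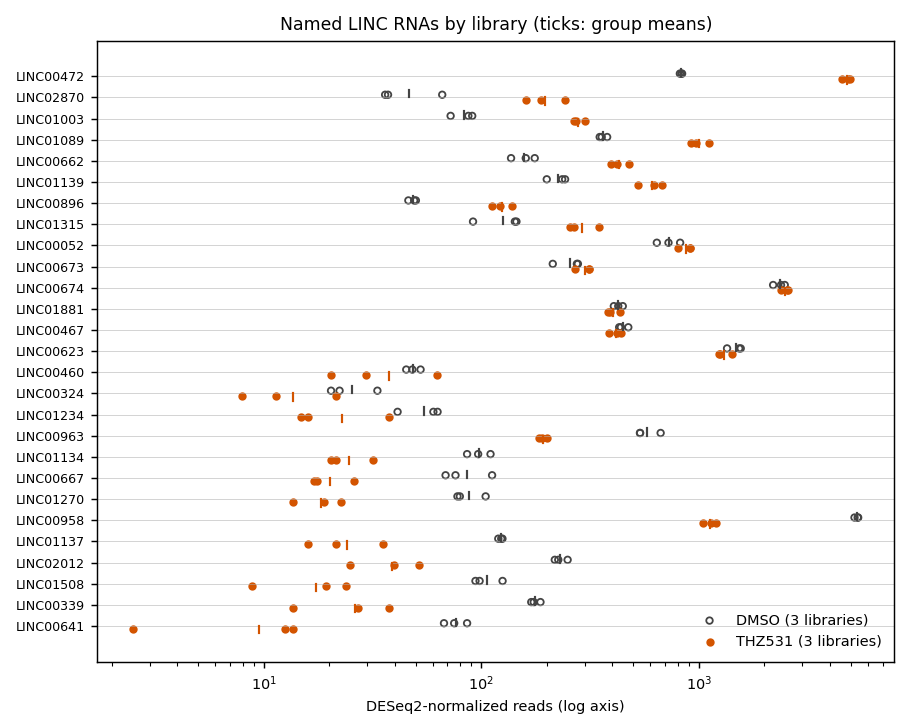
Normalized reads on a log axis (x axis) of the 27 named LINC RNAs (y axis, ordered by log2 fold change) in the 3 DMSO libraries (open circles) and the 3 THZ531 libraries (filled circles), with a tick at each group mean. The groups are far apart for LINC00958 and LINC00472, and they overlap for LINC00324, LINC00460, LINC00467, LINC00673 and the highest RNAs per kilobase other than LINC00958.

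Of 25 LINC RNAs listed from general knowledge, 18 had a row under that symbol and 11 were expressed here. Among the latter, 4 decreased and 3 increased. Of all 218 RNAs 35.3% decreased and 14.2% increased, and of all tested loci 23.9% and 15.7%. The decreased ones were LINC00958, LINC00641, LINC00963 and LINC01234. LINC00963, studied in the progression of prostate cancer, had 668, 537 and 538 normalized reads in DMSO and 200.3, 184 and 190.0 in THZ531, and its log2 fold change was -1.59 (limma adjusted p = 6.1e-09). LINC00641 had 67.5, 75.2 and 86.2 in DMSO and 2.52, 13.6 and 12.5 in THZ531, and its log2 fold change was -3.12 (limma adjusted p = 3.3e-05). In both RNAs the highest THZ531 library was far below the lowest DMSO library. LINC01234 had 41.3, 60.3 and 63.0 in DMSO and 37.8, 15.9 and 14.8 in THZ531, and its log2 fold change was -1.33 (limma adjusted p = 0.0061). Here THZ531 replicate 1 was just under the lowest DMSO library. The increased ones were LINC00472, LINC00662 and LINC01139.

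The other 4 were not called. LINC00467, studied as a MYCN-regulated transcript in neuroblastoma, had 448 ± 23.3 normalized reads in DMSO and 417 ± 27.6 in THZ531 (SD, n = 3), and its log2 fold change was -0.10 with a standard error of 0.10, and with RPL34 it was called at -0.60. LINC00673 had 256 ± 36.7 and 299 ± 24.4 (SD, n = 3), and its log2 fold change was 0.23 with a standard error of 0.14. LINC00460, studied in several carcinomas, had 45.3, 48.3 and 52.7 in DMSO and 63.0, 29.6 and 20.5 in THZ531. THZ531 replicate 1 was thus the highest of all 6 libraries and the other two THZ531 libraries were the lowest. Without it the log2 fold change of LINC00460 went from -0.51 to -0.95 and passed the thresholds, and without THZ531 replicate 3 it was -0.17. LINC00324 went from -0.93 to -1.29 without THZ531 replicate 1 and was then called, and it was -0.63 without THZ531 replicate 3. A row below the minimum was found for 7 of the listed RNAs. LINC00511, LINC00473 and LINC01116 had at most 6.83 normalized reads in any library, and LINC00941 reached 18.2. The remaining listed names had no row under a LINC symbol and were not searched under other symbols, so their expression is not known here.

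Levels of different RNAs can be compared only per length, here as normalized reads per kilobase of the exons in GENCODE, averaged over all 6 libraries. The highest 5 of the 194 RNAs with such exons were LINC00674, LINC01881, LINC00958, LINC00623 and LINC00052. For LINC00674 and LINC01881 GENCODE lists 160 and 412 bases of exon, in loci of 34378 and 78841 bases, and types both as pseudogenes, so that their levels of 15197 and 1008 normalized reads per kilobase rest on a small part of the counted locus. LINC00958 had 924 normalized reads per kilobase in DMSO and 195 in THZ531. LINC00623 had 570.1 and 501, and LINC00052, a neighbour of the receptor kinase gene NTRK3, had 371 and 445. LINC00958 was thus above both in DMSO and below both in THZ531. Apart from LINC00958, none of the 5 was called, with log2 fold changes from -0.19 (LINC00623) to 0.27 (LINC00052). The GENCODE gene and the counted locus shared at least 80% of the longer span for 126 of the 194 RNAs, and for the others the exon length is less certain.

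The direction of change differed with the span of the locus, from its start to its end. Of 68 LINC RNAs under 5 kb, 20 increased (29.4%) and 16 decreased (23.5%), with a median log2 fold change of 0.19. Of 82 RNAs between 5 and 20 kb, 7 increased (8.54%) and 34 decreased (41.5%), with a median of -0.65. Of 48 RNAs between 20 and 100 kb, 2 increased (4.17%) and 21 decreased (43.8%), with a median of -0.70. The 20 RNAs of 100 kb or more had a median of -0.11, with 2 increased and 6 decreased. Loci under 5 kb thus held 20 of the 31 increases. Some of these RNAs, such as LINC00528 and LINC00597, entered through the THZ531 libraries alone, so that their direction was fixed by the selection. At the minimum in all 6 libraries were 21 of the 31 increases and 53 of the 77 decreases. The classes by span, exon number, promoter and position were not counted for these alone.

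For all tested loci with a symbol the medians of the 3 shorter classes lay closer together. Under 5 kb, 22.5% of 1940 loci increased and 16.3% decreased, with a median log2 fold change of 0.20. With the loci without a symbol included, 27.5% of 3930 increased and 20.6% decreased (median 0.20), near the 29.4% and 23.5% of the LINC RNAs. In the same way, 26.1% of all tested loci between 5 and 20 kb decreased, and 24.1% of those between 20 and 100 kb. Between 5 and 20 kb, 10.1% of 4285 increased and 25.9% decreased, with a median of -0.07. Between 20 and 100 kb, 13.2% of 6368 increased and 24.1% decreased, with a median of -0.02. At 100 kb or more, 12.3% of 2685 increased and 24.4% decreased, with a median of -0.07, near the values of the LINC RNAs of that span. Across genes, Pearson's r between log2 fold change and log10 span was -0.20 and Spearman's rho -0.23 over the 218 RNAs, and -0.10 and -0.06 over the 15278 loci with a symbol. Over all 17568 tested loci they were -0.15 and -0.09. These are descriptions, since genes of the same 6 libraries are not independent replicates. By the exon number of the GENCODE model with most exons, 9 of 23 RNAs with 1 exon increased and 7 decreased (median log2 fold change 0.39). Of 67 RNAs with 2 or 3 exons 11 increased and 18 decreased (median -0.26), and of 104 with 4 or more exons 8 increased and 45 decreased (median -0.65). Of all tested loci 15.7% increased and 23.9% decreased. Those loci were not divided by exon number, so whether their shares differ with it is not known. The median spans of these classes were 2183, 5443 and 19890 bases, so that exon number and span cannot be told apart here.

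**Figure D4:**
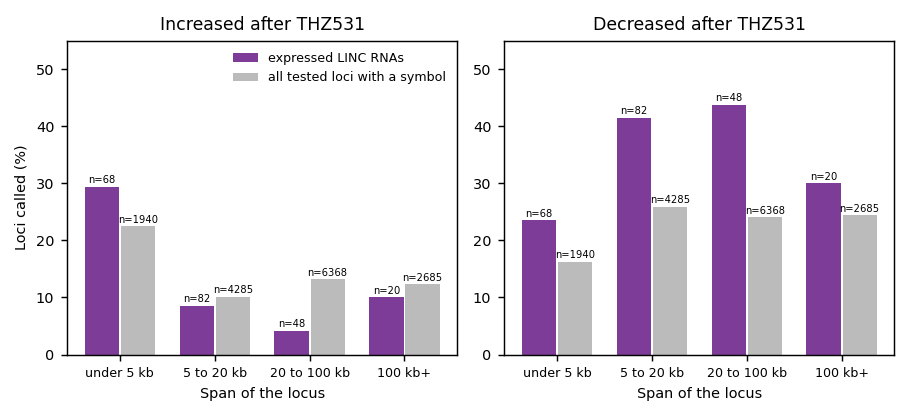
Share of loci called (y axis, %) as increased (left) or decreased (right) after THZ531, by span of the locus (x axis), for the expressed LINC RNAs (purple) and all tested loci with a symbol (grey), with the number of loci above each bar. Of the LINC RNAs under 5 kb 29.4% increased, and of those between 5 and 100 kb 41.5% and 43.8% decreased.

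RefSeq (GRCh38.p14) gives a promoter of 300 bases, from 250 before to 50 after the start of the gene, for 129 of the 218 RNAs, and for 119 of them this start lay within 100 bases of the 5ʹ end in the table. CpG dinucleotides are rare in the genome outside CpG islands, which many promoters of widely expressed genes carry. The promoters of the 21 increased RNAs held a median of 28 CpG and a GC content of 68.3%. Those of the 47 decreased RNAs held a median of 9 CpG and 52.7% GC, and those of the 61 RNAs that were not called 9 CpG and 56.3% GC. At least 20 CpG were found in 66.7% of the increased, 34.0% of the decreased and 27.9% of the other RNAs. Among the other tested loci the medians were 26, 25 and 26 CpG for 1507 increased, 2692 decreased and 7308 other loci, of which 68.8%, 66.0% and 70.6% held at least 20. The classes of LINC RNAs were thus farther apart in CpG than those of the other loci, and no test was made of this.

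The promoters of 6 named RNAs are shown to set CpG-rich and CpG-poor starts side by side, 5ʹ to 3ʹ on the strand of the gene (GRCh38.p14), with each CpG in capitals. LINC00472 (chr6:71420696-71420995, minus strand), LINC01003 (chr7:152463874-152464173, plus strand) and LINC01315 (chr22:42369159-42369458, minus strand) increased and hold 31, 28 and 28 CpG. LINC02870 (chr10:132444939-132445238, plus strand) also increased and holds 1. LINC00339 (chr1:22024941-22025240, plus strand) and LINC00641 (chr14:21206851-21207150, minus strand) decreased and hold 7 and 2. Decreased RNAs with CpG-rich promoters are not shown, among them LINC00963, LINC00667 and LINC01134 with 43, 38 and 32 CpG.
LINC00472: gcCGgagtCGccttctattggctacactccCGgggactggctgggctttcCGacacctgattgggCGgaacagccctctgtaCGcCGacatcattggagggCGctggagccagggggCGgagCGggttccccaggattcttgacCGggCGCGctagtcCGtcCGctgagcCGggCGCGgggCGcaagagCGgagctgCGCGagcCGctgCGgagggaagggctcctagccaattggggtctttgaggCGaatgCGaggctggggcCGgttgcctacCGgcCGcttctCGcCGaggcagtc
LINC01003: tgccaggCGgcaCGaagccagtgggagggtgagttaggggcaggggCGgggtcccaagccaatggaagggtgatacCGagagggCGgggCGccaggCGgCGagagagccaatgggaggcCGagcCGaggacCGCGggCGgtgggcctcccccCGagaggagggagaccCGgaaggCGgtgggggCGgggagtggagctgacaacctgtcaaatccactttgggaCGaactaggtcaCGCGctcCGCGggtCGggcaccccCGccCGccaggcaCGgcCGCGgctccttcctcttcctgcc
LINC01315: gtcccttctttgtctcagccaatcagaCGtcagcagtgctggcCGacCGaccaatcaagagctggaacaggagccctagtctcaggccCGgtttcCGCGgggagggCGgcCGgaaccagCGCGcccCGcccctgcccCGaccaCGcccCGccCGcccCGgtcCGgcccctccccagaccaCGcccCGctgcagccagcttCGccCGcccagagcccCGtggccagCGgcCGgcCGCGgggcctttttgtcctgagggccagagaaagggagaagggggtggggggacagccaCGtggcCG
LINC02870: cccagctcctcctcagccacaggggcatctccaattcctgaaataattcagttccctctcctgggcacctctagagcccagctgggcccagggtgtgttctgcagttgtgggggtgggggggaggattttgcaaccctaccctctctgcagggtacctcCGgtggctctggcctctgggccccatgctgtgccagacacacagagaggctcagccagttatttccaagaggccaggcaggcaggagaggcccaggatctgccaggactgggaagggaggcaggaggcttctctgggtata
LINC00339: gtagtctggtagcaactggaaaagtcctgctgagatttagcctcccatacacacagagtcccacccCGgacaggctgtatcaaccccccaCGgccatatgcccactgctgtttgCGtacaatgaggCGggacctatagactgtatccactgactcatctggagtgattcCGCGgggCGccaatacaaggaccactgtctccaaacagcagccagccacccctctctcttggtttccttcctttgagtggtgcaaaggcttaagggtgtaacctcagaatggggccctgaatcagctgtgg
LINC00641: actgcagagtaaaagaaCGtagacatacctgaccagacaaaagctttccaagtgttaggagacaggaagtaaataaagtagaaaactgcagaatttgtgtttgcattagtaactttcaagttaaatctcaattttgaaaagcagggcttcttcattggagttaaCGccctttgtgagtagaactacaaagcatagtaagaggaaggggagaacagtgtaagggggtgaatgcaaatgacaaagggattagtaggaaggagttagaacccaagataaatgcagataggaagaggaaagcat

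**Figure D5:**
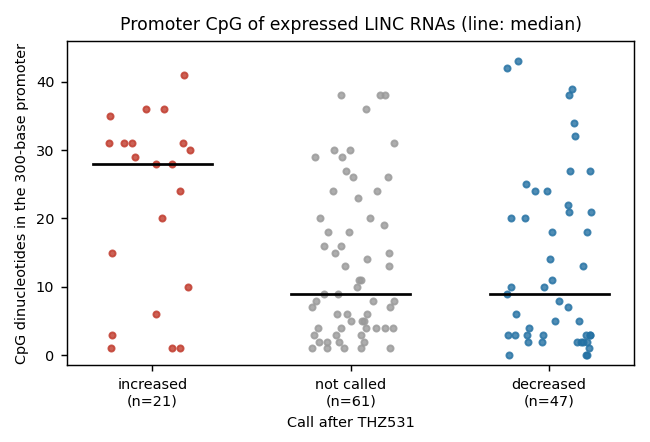
Number of CpG dinucleotides in the 300-base RefSeq promoter (y axis) of the 129 LINC RNAs that have one, by call after THZ531 (x axis), with a line at the median. The median is 28 for the 21 increased RNAs and 9 for the 47 decreased and the 61 other RNAs, and the classes overlap.

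Motifs were searched by their letters on both strands of these promoters. GGGCGG, the GC box bound by SP1, was found in 71.4% of the increased and 34.0% of the decreased RNAs, and in 47.5% of the RNAs that were not called. Among the other tested loci it was found in 70.4% of the increased, 65.9% of the decreased and 70.0% of those not called, and in 45.0% of all 35116 RefSeq promoters. The share of the increased LINC RNAs was thus near that of the other tested loci. This motif holds a CpG itself. CACGTG, the E box bound by MYC and MAX, which also holds a CpG, was found in 6 of the 21 increased RNAs (28.6%), in 6 of the 47 decreased (12.8%) and in 6.56% of those not called. The other tested loci held it in 10.2%, 9.55% and 10.0% of these classes, and all promoters in 7.26%. TGACTCA, the AP-1 motif, was found in 1 increased and 7 decreased RNAs (4.76% and 14.9%), in 3.85% and 3.38% of the other increased and decreased loci and in 4.95% of all promoters. CCAAT was found in 47.6% and 46.8%, against 37.8% and 35.5% of the other loci and 34.6% of all. TATAAA was found in 9.52% and 14.9%, against 10.3% and 5.13% of the other loci and 11.5% of all. TGACGTCA, the cAMP response element, which holds a CpG too, was found in 1 increased and 1 decreased RNA and in 0 of those not called. The other tested loci held it in 3.32%, 2.86% and 3.13% of these classes, and all promoters in 1.85%. No motif searched lies within another, and a match is a description of letters and not a binding site.

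Position relative to other genes was read with strands from GENCODE and RefSeq for 200 of the 218 RNAs. No overlap with another locus with a symbol was found for 161 RNAs, of which 60 decreased (37.3%) and 23 increased (14.3%), close to the 35.3% and 14.2% of all 218. For 19 RNAs an expressed gene on the opposite strand started within 1 kb of their start, on either side. This is known as a divergent promoter where the loci do not overlap, whereas LINC01560 and its partner ZNF41 overlap. Of the 19 RNAs, 5 increased and 5 decreased (26.3% each, against 15.7% and 23.9% of all tested loci). In 8 of these 10 the partner was not called. The pairs named here were chosen after their values were seen. LINC01126 had 19.8, 17.6 and 16.0 normalized reads in DMSO and 54.2, 69.3 and 78.5 in THZ531 (log2 fold change 1.85), and ZFP36L2, the gene of a protein that promotes mRNA decay, rose with a log2 fold change of 0.70. LINC01134 fell by 1.97 on the log2 scale, while C1orf174, which starts 111 bases away, rose by 0.86. LINC00205 had 2275, 2317 and 2196 normalized reads in DMSO and 810, 770 and 720 in THZ531, and its log2 fold change was -1.56 (limma adjusted p = 6.3e-12). Its partner POFUT2, the gene of a protein O-fucosyltransferase, starts 157 bases away and had with log2 fold change -0.09 (limma adjusted p = 0.17). Over the 19 pairs Pearson's r between both log2 fold changes was -0.02 and Spearman's rho -0.07, as a description, since pairs of LINC RNAs are counted from both sides.

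LINC00472 starts 282 bases from LINC01626 on the opposite strand, and its locus lies within that of OGFRL1 in the table, also on the opposite strand. LINC01626 had 14.3, 12.1 and 8.78 normalized reads in DMSO and 18.9, 15.9 and 25.0 in THZ531, and was not called (log2 fold change 0.72, limma adjusted p = 0.17). OGFRL1 had a log2 fold change of 0.47, below the fold threshold. Both values were lower than the 2.52 of LINC00472.

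For 9 LINC RNAs the whole locus lay inside another locus with a symbol on the same strand, where reads of the larger transcript could be counted for the LINC RNA. Of these, 2 increased and 2 decreased (22.2% each, against 15.7% and 23.9% of all tested loci). LINC00997 had 418, 536 and 614 normalized reads in DMSO and 999, 1131 and 885 in THZ531 (log2 fold change 0.95), while AVL9 around it fell by 1.68 on the log2 scale. LINC00597 had 0, 1.86 and 0 in DMSO and 17.6, 14.8 and 26.2 in THZ531, while PEAK1 around it, the gene of a pseudokinase, fell by 0.91 on the log2 scale. LINC00597 is among the 7 RNAs that reached the minimum in the THZ531 libraries alone, so that its direction was fixed by the selection. LINC01220, inside the locus of the immediate-early gene FOS, was not called (log2 fold change 0.76), while FOS rose by 1.44.

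A pair of LINC RNAs overlaps on opposite strands of chromosome 18. LINC00667, on the plus strand from 5232876 to 5246508, had 76.2, 112 and 68.6 normalized reads in DMSO and 17.6, 26.1 and 17.1 in THZ531, and its log2 fold change was -2.02 (limma adjusted p = 3.1e-05). LINC00526, inside it from 5236725 to 5238598, had 3.18, 5.57 and 14.4 normalized reads in DMSO and 40.3, 63.7 and 31.9 in THZ531. Of the DMSO libraries only replicate 3 reached the minimum, so that LINC00526 was selected through the THZ531 libraries. Its values are a description, and no fold is given. LINC00667 was at the minimum in all 6 libraries. In these values the RNAs moved in opposite directions. The library kit keeps the strand, but whether the counting used it is not given in the sources used here.

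Within 5 kb after the end of an expressed gene on the same strand were 16 LINC RNAs, of which 5 decreased and 2 increased (31.2% and 12.5%, against 35.3% and 14.2% of all 218 RNAs and 23.9% and 15.7% of all tested loci). LINC02012 begins 114 bases after BDH1, the gene of a ketone body dehydrogenase, which had a log2 fold change of -0.65. LINC00641 begins 2238 bases after HNRNPC, which had a log2 fold change of 0.03. LINC00324 begins 771 bases after CTC1, which had -0.74. Of 45 RNAs 5 to 50 kb from such a gene 17 decreased (37.8%) and 9 increased, and of 138 farther away 49 decreased (35.5%) and 19 increased.

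All 40 factors of a list of noncoding RNA termination and turnover were tested, and 9 decreased (22.5%) and 2 increased (5.0%), against 23.9% and 15.7% of all tested loci, with a median log2 fold change of 0.07. The share of decreases was thus near that of all loci. INTS6, a subunit of the Integrator complex that cuts nascent RNA, went from 2027 ± 57.8 to 315 ± 24.8 normalized reads (SD, n = 3), and its log2 fold change was -2.68. ZC3H4, which restricts noncoding transcription together with WDR82, went from 1410 ± 137 to 346 ± 34.9 (SD, n = 3), and its log2 fold change was -2.02. These were the largest decreases of the list. ZCCHC7, a subunit of the nuclear TRAMP complex, fell by 1.55 on the log2 scale, INTS3 by 1.41, and the exosome genes EXOSC2, EXOSC3 and EXOSC4 by 1.31, 0.94 and 0.77. XRN2, the nuclear exonuclease of termination, rose by 0.66 and SRRT, which binds the cap-binding complex, by 0.75. With the same total or RPL34 none of the 40 increased in limma, and 11 and 14 decreased. The increased genes numbered 5, 4 and 5 without DMSO replicate 3, THZ531 replicate 1 and THZ531 replicate 3. Whether these changes bear on the LINC RNAs was not tested.

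Reads of some RNAs may be shared with copies. Of 194 RNAs with GENCODE transcripts, 120 shared no stretch of 100 bases with a transcript of another gene, and 9 shared more than 30% of such stretches, among them LINC01881 (89.8%), LINC00623 (48.2%) and LINC01089 (46.7%). The values of these RNAs are uncertain to that extent. At the edge of the selection, LINC00624, LINC02206 and LINC00589 entered with a third-highest value of 10.1 normalized reads, and LINC01671, LINC00941 and LINC00461 stayed out with 9.57.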

How the data were processed

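PolyA libraries of 3 DMSO and 3 THZ531 repeats were analysed. The authors mapped reads to hg38 with STAR (2.7.5a in the submitters' processing notes), counted them with featureCounts on FAST DB genes and deposited signal values, namely counts divided by a DESeq2 size factor per library. Whole reads were recovered from the deposited values (100% within 0.01 of a whole number).

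All loci that held 10 or more in no fewer than 3 libraries entered 1 fit of log2(value + 1) by limma 3.58.1, with trended variance and no covariates, in R 4.3.3, with Benjamini-Hochberg adjustment. This scale understates the change of weak RNAs. edgeR 4.0.16 and DESeq2 1.42.0 were run on the recovered reads as alternatives. The fits were tested on simulated data. Named were the 8 RNAs that rose and the 8 that fell most (called, mean of at least 50, groups not overlapping), the 5 highest per exon kilobase, the expressed RNAs of a list of 25 and those at the edge of the selection. Members and lists were chosen with earlier results of these data known. Of 26793 rows with a symbol, 25522 were matched to GENCODE v44 or RefSeq. The limma p-values set the difference between the groups against the spread between their 3 repeats. The variance of each locus was moderated with that of all loci tested. Exact permutation tests were made with scipy 1.17.1.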

Additional observations from a re-analysis of the deposited data

How the results depend on the processing

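The median log2 fold change of the LINC RNAs stayed below 0 in each alternative run. It was -0.36 with a pseudocount of 0.1, -0.22 with a pseudocount of 10, -0.36 with a minimum of 50 and with a mean of at least 10, -0.57 with the same total, -0.36 with upper-quartile scaling, -0.81 with RPL34, -0.30 in edgeR and -0.29 in DESeq2. With each library left out in turn it lay between -0.37 and -0.26. With the minimum of 50, 15 RNAs increased and 49 decreased, as fewer RNAs were tested. With RPL34, 18 increased. The calls numbered 30 up and 78 down in edgeR, 27 and 73 in DESeq2, 29 and 75 with the adjusted p, and 26 to 32 and 68 to 80 with a library left out. With the replicate block, 32 increased and 76 decreased and the median was -0.34. The replicate numbers did not pair the repeats (correlation of the deviations of same-numbered libraries, -0.039 to 0.019). Of the 27 RNAs named by rule, those called kept their call and direction in each alternative that gave a value (LINC01234, LINC00324 and LINC00460 gave none with the minimum of 50), and 8 calls were gained by LINC00324, LINC00460, LINC00467 and LINC00623, 4 of them with RPL34. Depth limits the weak RNAs most, since 118 of the 218 had a mean under 50 normalized reads.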
